A study of Mus musculus with 4 samples.

Results

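Vip interneurons, the GABA-releasing neurons that also make vasoactive intestinal peptide, were examined in single nuclei of the mouse basolateral amygdala. A nucleus counted as a Vip nucleus when it held at least 3 Vip UMIs (unique molecular identifiers, the counted RNA molecules), at least 1 UMI summed over Gad1, Gad2 and Slc32a1, and at most 1 UMI summed over Slc17a7 and Slc17a6. These are the genes of GABA synthesis and vesicular loading and of vesicular glutamate transport. By that rule 300 of 26850 nuclei were members: 63 and 85 in the DISC1-N libraries of replicates 1 and 2, and 73 and 79 in the WT libraries. They were set against 3840 other GABAergic nuclei, which held at least 2 UMIs of the 3 GABA genes, no UMI of the 2 glutamate transporter genes and no Vip UMI. Members were thus chosen by measured UMIs of Vip, Gad1, Gad2, Slc32a1, Slc17a7 and Slc17a6, and values of these 6 genes are descriptions that carry no test.

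The study asked whether cells of the basolateral amygdala are abnormal in DISC1-N mice. DISC1-N and WT mice were C57BL/6J and both groups received tamoxifen 6 h before collection. Tissue of the basolateral amygdala of both sides was pooled from 5 mice for each group before nuclei were isolated, and each genotype had 2 libraries, numbered as replicates 1 and 2. Whether the replicates of a genotype came from separate pools is not given in the sources used here, nor are the promoter or build of the DISC1-N allele and the age and sex of the mice. Spread between mice within a pool cannot be seen.

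Vip interneurons arise in the caudal ganglionic eminence of the embryonic brain, and the transcription factors Prox1 and Npas1 and the RNA-editing family member Adarb2 mark that lineage. In cortex and in the basolateral amygdala many of them contact other interneurons, so that their firing releases principal neurons from inhibition. The peptide itself acts through receptors that raise cyclic AMP, and transcription of the Vip gene responds to cyclic AMP in turn.

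The peptide gene that defines the members and Tac2, the called peptide gene with a promoter entry, are shown by the 250 bases before their starts, taken from RefSeq on GRCm38.p6. Both genes lie on the plus strand, Vip at chr10:5638968-5639217 and Tac2 at chr10:127724228-127724477 for the stretches printed. Capitals mark TGACG, the core of the cyclic AMP response element TGACGTCA; both motifs were searched on both strands.
Vip: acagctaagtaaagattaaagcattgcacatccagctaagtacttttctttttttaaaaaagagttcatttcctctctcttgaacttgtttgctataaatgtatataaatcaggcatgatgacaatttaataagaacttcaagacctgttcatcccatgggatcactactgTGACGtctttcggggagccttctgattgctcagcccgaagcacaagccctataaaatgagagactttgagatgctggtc
Tac2: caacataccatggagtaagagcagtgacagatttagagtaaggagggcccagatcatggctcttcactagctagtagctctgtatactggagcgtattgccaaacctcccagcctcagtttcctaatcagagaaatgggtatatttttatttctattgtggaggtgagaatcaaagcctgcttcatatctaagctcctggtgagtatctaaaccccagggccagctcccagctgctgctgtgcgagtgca
The Vip stretch held 1 such match, beginning 79 bases before the start, and no full TGACGTCA. The Tac2 stretch held neither. Over 32851 promoter stretches of that length, 17.8% held TGACG or its complement CGTCA and 1.55% held TGACGTCA.

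The 4 libraries held between 37840301 and 48439711 UMIs in all. Members had a median of 3629 UMIs and the other GABAergic nuclei 4716. Free RNA was gauged in 1565 oligodendrocyte reference nuclei, which held no UMI of the GABA or glutamate transporter genes and had a median of 1525 UMIs. No cell barcode was shared among members of different libraries, and 5 to 21 of all kept barcodes were shared per pair of libraries. In Vip nuclei the pairs of libraries with the same replicate number differed less than the others, with a chi-square per degree of freedom over genes of 1.53 and 1.60 for same-numbered pairs and 2.99 to 4.07 for the rest. The replicate number also coincided with the Cell Ranger version named in the file headers, 7.0.0 for replicate 1 and 6.0.2 for replicate 2, so genotype values are given within replicate numbers as well.

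Vip is encoded at chr10:5639218-5647617 on the plus strand of mm10. Its summed level was 2741 and 1695 CPM (UMIs of the gene per 1000000 UMIs of the summed nuclei) in Vip nuclei of the DISC1-N libraries, and 2929 and 2121 CPM in those of the WT libraries. A member held a median of 8 Vip UMIs, with medians of 10 and 6 in the DISC1-N libraries and 9 and 7 in the WT libraries, and a maximum of 113. Just inside the threshold lay 37 nuclei with 3 Vip UMIs and 42 with 4, and just outside it 64 GABAergic nuclei with 2 and 263 with 1. Nuclei with 3 or 4 Vip UMIs had 246 ± 62.2 CPM of Prox1 and 93.3 ± 44.1 CPM of Meis2, against 58.4 ± 30.2 and 696 ± 40.6 CPM in nuclei with 1 or 2 (SD over 4 libraries). At least 1 Vip UMI was also found in 72 of 1763 excitatory reference nuclei, chosen for at least 3 Slc17a7 UMIs and none of the GABA genes (4.08%, median 10803 UMIs), and in 54 of 1565 oligodendrocyte reference nuclei (3.45%, median 1525 UMIs). None of the oligodendrocyte nuclei reached 3 Vip UMIs.

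**Figure D1:**
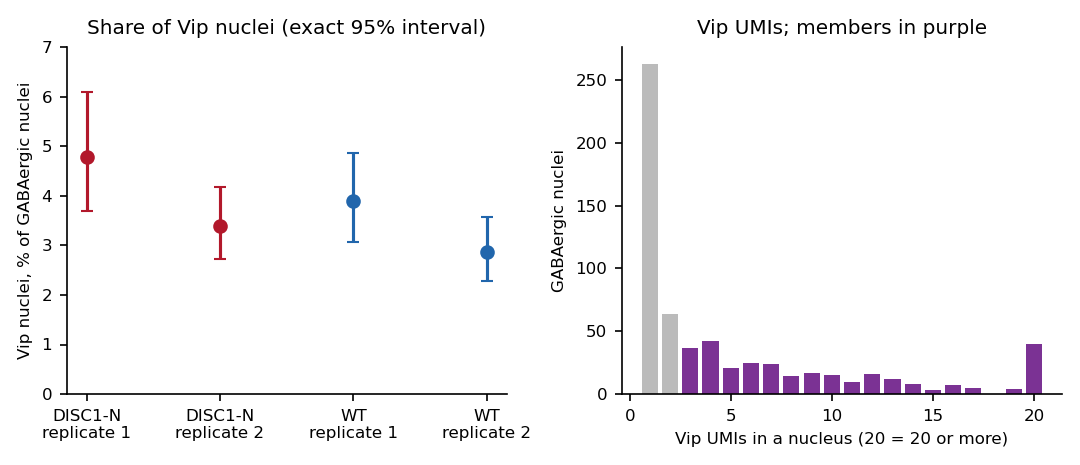
Left, Vip nuclei as a percentage of GABAergic nuclei in each library, with exact 95% binomial intervals that cover counting error only; the shares were 4.79% and 3.39% in DISC1-N libraries and 3.89% and 2.87% in WT libraries. Right, the number of GABAergic nuclei by Vip UMIs per nucleus, from 1 UMI up; members begin at 3 UMIs and the last bar holds nuclei with 20 or more.

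The markers of the lineage were those of Vip interneurons. An Adarb2 UMI was present in 299 of the 300 members (99.7%), against 63.7% of other GABAergic nuclei and 13.1% of oligodendrocyte reference nuclei, unthinned. A Npas1 or Prox1 UMI was held by 207 members. Npas1 was found in 23.7% of members, 4.90% of other GABAergic nuclei and 0.383% of oligodendrocyte reference nuclei. Prox1 was found in 59.3%, 7.37% and 16.0% of these kinds, at unequal depths. Adarb2 stood at 7094 and 13358 CPM in Vip nuclei of DISC1-N libraries and at 6207 and 11027 CPM in those of WT libraries, against 2018, 2450, 1600 and 2294 CPM in the other GABAergic nuclei of the same libraries. Prox1 stood at 239, 236, 160 and 233 CPM in Vip nuclei, against 17.0, 21.6, 18.1 and 17.7 CPM in the others. In every library Vip nuclei were above the other GABAergic nuclei for both genes, with no overlap between the kinds. The log2 fold changes were 2.16 (SE 0.08, adjusted p = 4.16e-22) for Adarb2, 3.56 (SE 0.14, adjusted p = 3.37e-21) for Prox1 and 2.14 (SE 0.20, adjusted p = 1.57e-10) for Npas1. These and all adjusted p-values below, unless another tool is named, come from edgeR's quasi-likelihood test on UMIs summed per library and kind of nucleus, with Benjamini-Hochberg adjustment over all genes tested.

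Against the other GABAergic nuclei, Vip nuclei differed across a wide set of genes: 1513 of 12652 genes tested passed an adjusted p of 0.05 (12%), 684 of them higher (5.41%) and 829 lower (6.55%) in Vip nuclei. The median log2 fold change over all genes tested was -0.01. Among genes averaging at least 50 CPM, with sex-linked genes and unnamed gene models left out, the largest rises were Crh, the gene of corticotropin-releasing hormone, Adra1b, an alpha-1 adrenergic receptor, Prox1os, a transcript antisense to Prox1, Cp (ceruloplasmin, a copper-carrying ferroxidase), Plpp4 (a phospholipid phosphatase), Tac2 (the precursor of neurokinin B), Fbln2 (an extracellular matrix fibulin), Prox1, Wnt5b (a Wnt ligand), Sntb1 (a syntrophin), Npy1r (a neuropeptide Y receptor) and Rspo2 (an R-spondin, an amplifier of Wnt signals). The largest falls were Col6a1 and Col11a1 (collagen chains), Sst and Npy (the somatostatin and neuropeptide Y precursors), the transcription factors Foxp2, Meis2 and Tox, Mpped1, Ankfn1, Nxph1 (a secreted neurexin ligand), Sv2c (a synaptic vesicle protein) and Atp2b4 (a plasma membrane calcium pump). The same direction in each library was a condition for naming these 24 genes, so it is no separate result. All 24 also kept their direction under every alternative that was run. Prox1 and Prox1os overlap on opposite strands, and whether the counting separated strands is not given in the sources used here, so how the overlapping reads divide between them is uncertain.

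Crh had 105 and 58.9 CPM in Vip nuclei of the DISC1-N libraries and 77.2 and 118 CPM in those of the WT libraries, against 1.54, 0.565, 2.80 and 2.53 CPM in the other GABAergic nuclei. Every Vip sum was above every other sum (log2 fold change 5.65, SE 0.31, adjusted p = 7.14e-17). Adra1b had 206, 266, 173 and 262 CPM in Vip nuclei, against 12.7, 13.0, 8.16 and 12.9 CPM in the others (log2 fold change 4.33, SE 0.14, adjusted p = 2.57e-23). At the other end, Col6a1 had 13.1, 2.56, 13.3 and 3.19 CPM in Vip nuclei, against 71.6, 60.4, 64.2 and 58.7 CPM in the others, again without overlap. Its log2 fold change was -2.96 (SE 0.31, adjusted p = 1.78e-09).

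**Figure D2:**
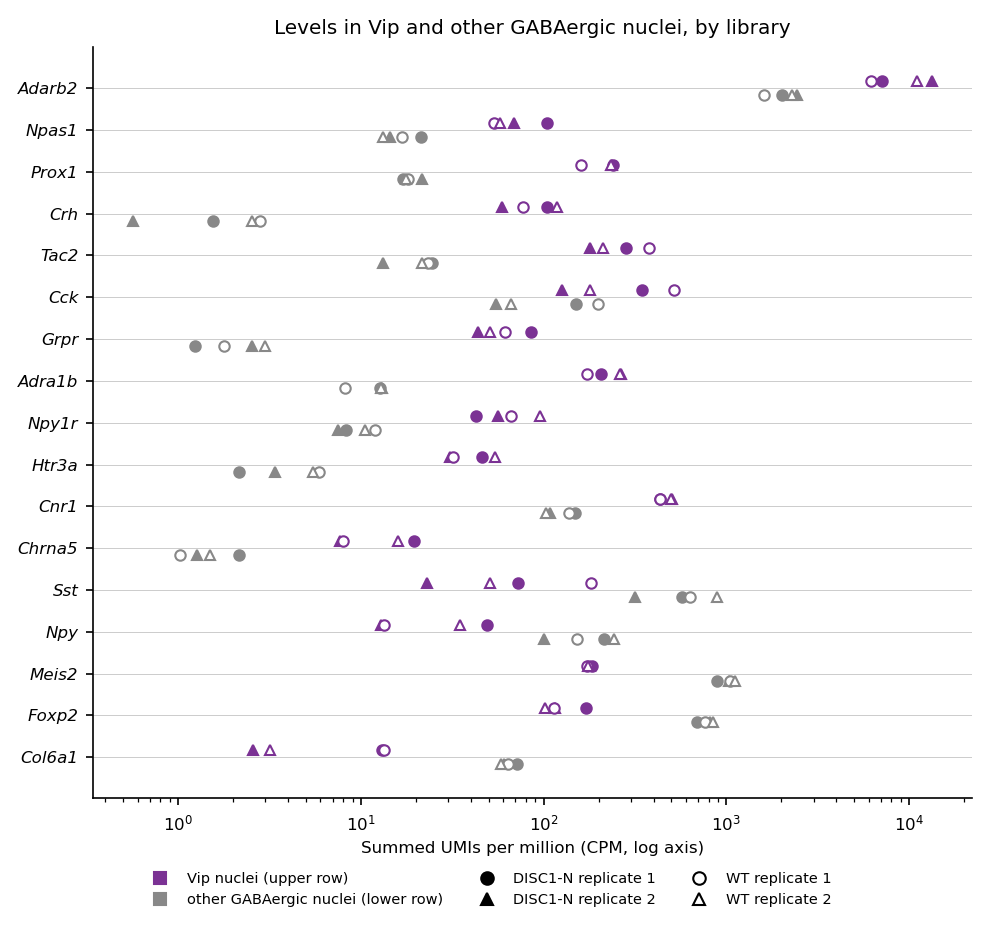
Summed level in CPM (log axis) of 17 genes in Vip nuclei (purple, upper row of each gene) and other GABAergic nuclei (grey, lower row) of the 4 libraries; filled symbols are DISC1-N, open symbols WT, circles replicate 1 and triangles replicate 2. The markers, Crh, Grpr and Adra1b lie to the right in Vip nuclei in every library, and Sst, Npy, Meis2, Foxp2 and Col6a1 to the left.

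Called factors of the caudal list were higher in Vip nuclei and called factors of the medial list lower, though most medial factors were not called. Of 7 tested factors of interneurons from the caudal ganglionic eminence, 6 were higher in Vip nuclei and none lower, with a median log2 fold change of 1.93. They were Prox1, Npas3, Zbtb16, Npas1, Nr2e1 and Nr2f2. Npas3, a basic helix-loop-helix factor, had 1749, 2546, 1749 and 2198 CPM in Vip nuclei, against 528, 565, 523 and 593 CPM in the others (log2 fold change 1.93, SE 0.08, adjusted p = 4.92e-20). Of 5 tested factors of the medial ganglionic eminence, the source of Sst and parvalbumin interneurons, none was higher and 2 were lower, Sox6 (log2 fold change -1.97, SE 0.24) and Satb1 (-0.76, SE 0.24). Lhx6, the factor that directs the fate of medial interneurons, had 0 and 0 CPM in Vip nuclei of DISC1-N libraries and 10.7 and 6.38 CPM in those of WT libraries, against 11.7 to 16.4 CPM in the others, and missed the threshold (adjusted p = 0.0559).

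Genes of striatal-type and intercalated-type GABA neurons, which adjoin the basolateral amygdala, were lower in Vip nuclei for 10 of 14 tested, with none higher and a median log2 fold change of -1.39. Meis2 had 183, 179, 173 and 175 CPM in Vip nuclei, against 892, 1037, 1045 and 1115 CPM in the others (log2 fold change -2.48, SE 0.10, adjusted p = 1.69e-20). Foxp2 (-2.60), Rarb, a retinoic acid receptor (-1.96), and Tshz1, a zinc finger factor (-1.38), were also lower on the log2 scale. Of 10 tested genes that define other interneuron subclasses, 8 were lower and none higher, among them Sst (-2.82), Npy (-2.69), Crhbp, which binds corticotropin-releasing hormone (-1.97), and Lamp5 (-1.90). The median of that list was -1.93 as fitted. It was -1.63 when Chodl, which had 0 UMIs in Vip nuclei of all 4 libraries, was put at the fold that 3 UMIs over all Vip nuclei would give. Parvalbumin (Pvalb) had 0 to 7.99 CPM in Vip nuclei and 5.50 to 12 CPM in the others and was not called.

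Neuropeptide genes divided. Of 14 tested, 5 were higher in Vip nuclei, Crh, Tac2, Cck (cholecystokinin), Pnoc (the nociceptin precursor) and Pthlh (parathyroid hormone-related protein), and 4 were lower, Sst, Npy, Nts (neurotensin) and Tac1 (the substance P precursor); the median log2 fold change was -0.49. Tac2 had 282, 179, 378 and 211 CPM in Vip nuclei, against 24.4, 13.1, 23.2 and 21.5 CPM in the others, with no overlap (log2 fold change 3.70, SE 0.14, adjusted p = 4.16e-22). Cck had 344, 125, 519 and 179 CPM in Vip nuclei, against 150, 54.6, 200 and 66.1 CPM in the others (log2 fold change 1.35, SE 0.11). Cck was higher in Vip nuclei within each library, while across libraries both kinds were higher in replicate 1 than in replicate 2. In replicate 1 its UMIs were no rarer in oligodendrocyte reference nuclei than in members at equal depth, as given below. Penk, the enkephalin precursor, had 187, 133, 253 and 144 CPM in Vip nuclei, against 165, 185, 192 and 197 CPM in the others, and these ranges overlapped (log2 fold change -0.02, SE 0.13, adjusted p = 0.964). Nts had no UMI in Vip nuclei of any library and 298 UMIs in the other GABAergic nuclei (14.2 CPM pooled), so it was at least 6.56-fold lower at 3 UMIs over all Vip nuclei. With Nts at that bound the median of the list was again -0.49.

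Peptide handling showed smaller differences. Of 13 tested genes of peptide processing and dense-core vesicles, 4 were higher, Pcsk1 and Pcsk2 (prohormone convertases), Pam (the amidating enzyme) and Vgf (a granin-like peptide precursor), and 3 were lower, Scg2, Cadps2 and Pcsk1n, with a median of 0.21. Pcsk1 had 68.8, 69.1, 50.6 and 67.0 CPM in Vip nuclei, against 25.3, 30.4, 28.8 and 24.4 CPM in the others (log2 fold change 1.25, SE 0.19, adjusted p = 3.90e-06). Of the family of Vip itself, only the receptors Vipr1 and Adcyap1r1 were tested and neither was called. Vipr1, a receptor for the peptide, had 0 to 16.0 CPM in Vip nuclei and 4.01 to 8.65 CPM in the others. Adcyap1r1, the receptor for the related peptide PACAP, had 62.2, 48.7, 58.6 and 57.4 CPM in Vip nuclei and 46.9, 37.7, 51.7 and 45.2 CPM in the others (adjusted p = 0.251). Vipr2, the other Vip receptor, had at most 5.12 CPM in Vip nuclei and was too low to test.

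Receptors for peptides and modulators differed strongly gene by gene. Of 16 peptide receptors tested, 4 were higher, Grpr (the gastrin-releasing peptide receptor) and the neuropeptide Y receptors Npy1r, Npy5r and Npy2r, and 2 were lower, Oprm1 (the mu opioid receptor) and Tacr1 (the substance P receptor); the median was -0.33. Grpr, on the X chromosome, had 85.2, 43.5, 61.2 and 51.0 CPM in Vip nuclei, against 1.24, 2.54, 1.78 and 2.97 CPM in the others (log2 fold change 4.70, SE 0.35, adjusted p = 2.78e-13). A Grpr UMI was present in 20.0% of members and in 0.0639% of oligodendrocyte reference nuclei, unthinned. Npy1r had 42.6, 56.3, 66.6 and 95.7 CPM in Vip nuclei, against 8.34, 7.49, 12 and 10.5 CPM in the others (log2 fold change 2.81, SE 0.24). Tacr1 had 3.28, 2.56, 7.99 and 9.57 CPM in Vip nuclei, against 40.6 to 42.4 CPM in the others (log2 fold change -2.80, SE 0.36, adjusted p = 1.48e-07).

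Of 7 acetylcholine receptor genes tested, 4 were higher in Vip nuclei, the muscarinic Chrm3 and the nicotinic Chrna7, Chrna5 and Chrna4, and Chrm2, an inhibitory muscarinic receptor, was lower; the median was 1.14. Chrm3 had 475, 694, 407 and 574 CPM in Vip nuclei, against 221, 264, 189 and 261 CPM in the others (log2 fold change 1.23, SE 0.09, adjusted p = 4.67e-13). Of 7 serotonin receptors, Htr3a, Htr4 and Htr2c were higher and Htr1f and Htr2a lower. Htr3a, the ion channel of the family, had 45.9, 30.7, 32.0 and 54.2 CPM in Vip nuclei, against 2.16, 3.39, 5.86 and 5.50 CPM in the others (log2 fold change 3.27, SE 0.35, adjusted p = 2.44e-09). Of 8 catecholamine receptors, the adrenergic Adra1b and Adrb1 were higher and the dopamine receptors Drd1 and Drd3 lower. Drd1 had 13.1, 12.8, 5.33 and 6.38 CPM in Vip nuclei, against 40.4, 27.3, 39.3 and 31.6 CPM in the others (log2 fold change -1.83, SE 0.33). Cnr1, the cannabinoid receptor, had 436, 502, 434 and 498 CPM in Vip nuclei, against 149, 109, 138 and 103 CPM in the others (log2 fold change 1.97, SE 0.11, adjusted p = 7.93e-17).

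Among receptors for GABA and glycine, 4 of 17 were higher in Vip nuclei and 8 lower, with a median of -0.30. The higher ones included Gabrb2, a GABA receptor subunit, and Glra2, a glycine receptor subunit. Glra2 had 193, 282, 184 and 246 CPM in Vip nuclei, against 103, 112, 102 and 128 CPM in the others, with no overlap (log2 fold change 1.07, SE 0.11, adjusted p = 2.45e-09). The lower ones included Gabrg3 (-0.80), Gabrg1 (-2.00), Gabra2 (-0.59) and Gabrd (-2.04). Of 21 glutamate receptor genes, 7 were higher and 10 lower, with a median of -0.34. The kainate receptor Grik2 had 2522, 3178, 2175 and 2743 CPM in Vip nuclei, against 1378, 1732, 1375 and 1673 CPM in the others (log2 fold change 0.82, SE 0.07, adjusted p = 3.10e-11). The NMDA receptor subunit Grin2a had 393, 335, 439 and 386 CPM in Vip nuclei, against 965, 1027, 954 and 1044 CPM in the others (log2 fold change -1.32, SE 0.09, adjusted p = 8.22e-14). Genes of GABA synthesis and transport outside the rule did not differ by the test, with 0 of 4 called.

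Ion channels and adhesion molecules were mixed. Of 35 potassium and HCN channel genes, 8 were higher and 11 lower (median -0.19). Kcnt2, a sodium-activated potassium channel, had 1094, 1086, 873 and 935 CPM in Vip nuclei, against 185, 188, 193 and 178 CPM in the others (log2 fold change 2.46, SE 0.09, adjusted p = 4.16e-22), the largest rise of the list. Kcnd2, an A-type potassium channel, had 1287, 825, 983 and 1027 CPM in Vip nuclei, against 2881, 3814, 3303 and 3872 CPM in the others (log2 fold change -1.72, SE 0.10, adjusted p = 2.42e-16). Of 13 calcium channel genes, Cacnb2 was higher and 7 were lower, including Cacna1e, the R-type channel, with 207 to 437 CPM in Vip nuclei against 559 to 657 CPM in the others. Of 12 sodium channel genes and their partners, 2 were lower, Fgf14 (-0.60) and Fgf13 (-0.31), which bind sodium channels inside the cell, and none was higher. Of 32 synaptic adhesion genes, 12 were higher and 14 lower (median 0.09). Cntn6, a contactin, had 445, 584, 394 and 523 CPM in Vip nuclei, against 96.3, 169, 118 and 152 CPM in the others (log2 fold change 1.91, SE 0.10, adjusted p = 1.41e-17), and Nrg1, a ligand of ErbB receptors, had 734, 430, 759 and 545 CPM against 1510, 1827, 1665 and 1629 CPM (log2 fold change -1.41, SE 0.11, adjusted p = 5.66e-13).

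**Figure D3:**
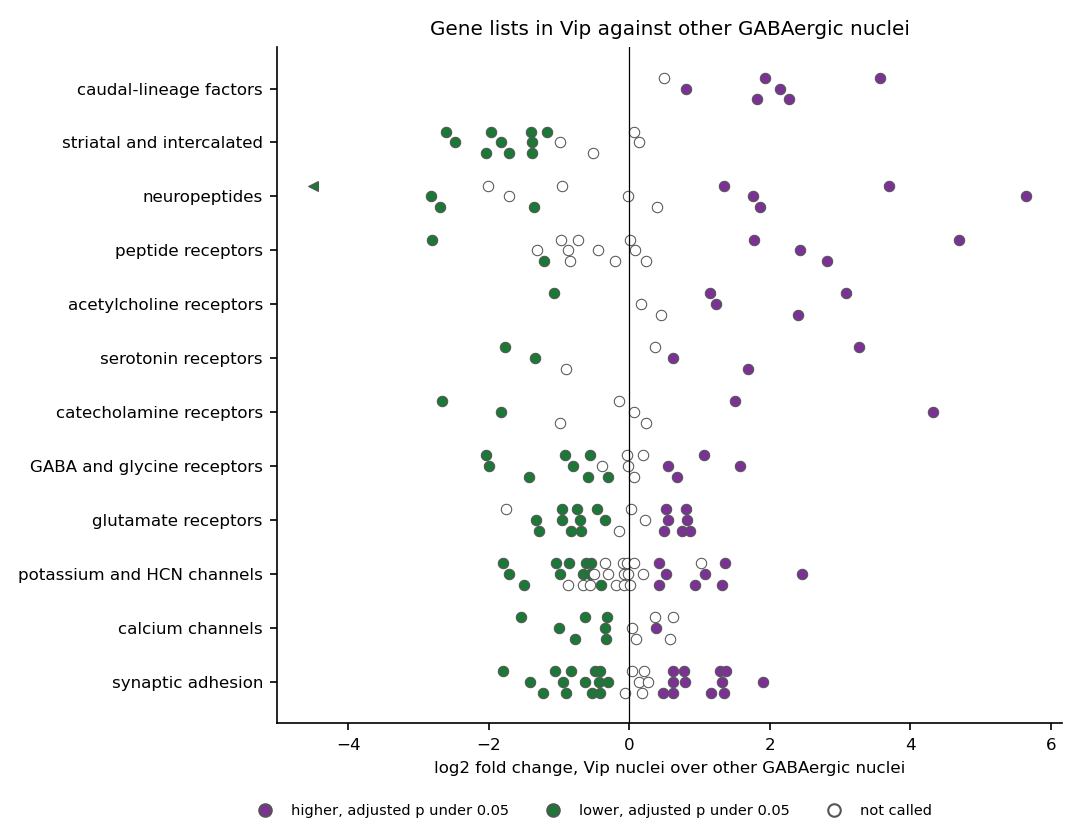
Log2 fold changes of Vip nuclei over other GABAergic nuclei for the tested genes of 12 lists; each point is a gene, purple where it was called higher, green where called lower and white where not called. The triangle at the left edge is Nts, which had 0 UMIs in Vip nuclei. All called caudal-lineage factors lie to the right and all called striatal and intercalated genes to the left.

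Of 24 genes of cyclic AMP signalling, 3 were higher (Pde1c, Gnas and Pde4d) and 9 lower, with a median of -0.19. Pde1a, which breaks down cyclic nucleotides, had 285, 279, 375 and 281 CPM in Vip nuclei, against 758, 782, 650 and 796 CPM in the others (log2 fold change -1.25, SE 0.11, adjusted p = 1.03e-11). The counts of the following lists stand beside the 12% of all genes tested that were called in this comparison. Of 20 immediate-early genes, Vgf and Nr4a1 were higher. None of 12 tested mitochondrially encoded genes and none of 17 chaperone genes was called. Of 19 partners of the DISC1 protein, Pde4d was higher and Kalrn and Pde4b were lower. The counts for the immediate-early genes and the DISC1 partners were near the share over all genes. Of markers of other cell types, none of 7 excitatory, 8 oligodendrocyte, 7 microglial or 1 mural genes tested was called. Lower were 2 of 7 astrocyte genes (Slc4a4 and Slc1a3) and 1 of 4 oligodendrocyte precursor genes (Vcan). Of 3 endothelial genes, 1 (Slco1a4) was higher. The 8 oligodendrocyte markers summed to 120 to 676 CPM in Vip nuclei and 210 to 415 CPM in the others, against 7959 to 13944 CPM in oligodendrocyte reference nuclei.

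A second comparison set Vip nuclei against 1928 of the other GABAergic nuclei that held at least 3 Adarb2 UMIs and no Vip. Since Adarb2 chose them, it is not tested here. These nuclei share Adarb2 with Vip nuclei but not the rest of the lineage markers. Caudal-lineage factors summed to 922 to 1045 CPM in them, against 2380 to 3375 CPM in Vip nuclei. Striatal and intercalated genes summed to 3442 to 4158 CPM, against 1457 to 1678 CPM in Vip nuclei. Of 11339 genes, 1611 passed (14.2%), 776 higher (6.84%) and 835 lower (7.36%). The largest rises were Crh, Adra1b, Wnt5b, Prox1os, Plpp4 and Cp, and the largest falls Col6a1, Foxp2, Col11a1, Meis2, Ankfn1 and Sv2c. Crh averaged 89.7 ± 26.7 CPM in Vip nuclei and 1.51 ± 1.42 CPM in Adarb2 nuclei without Vip (SD over 4 libraries; log2 fold change 6.02, SE 0.35, adjusted p = 3.09e-18). Meis2 averaged 178 ± 4.53 CPM in Vip nuclei and 1267 ± 138 CPM in Adarb2 nuclei without Vip (log2 fold change -2.80, SE 0.11, adjusted p = 4.28e-24). Sst, lower in Vip nuclei than in all other GABAergic nuclei, averaged 81.8 ± 69.2 CPM in Vip nuclei and 115 ± 34.5 CPM here, and was not called (log2 fold change -0.50, SE 0.19, adjusted p = 0.0727). Of 7 caudal-lineage factors 6 were again higher, and 10 of 14 striatal and intercalated genes lower. The Adarb2 nuclei are part of the other GABAergic nuclei and the Vip nuclei are shared, so the 2 comparisons are not independent.

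Genes that mark Vip subtypes were looked at across the members; whether their levels vary between nuclei beyond UMI sampling was not tested. Of 24 tested subtype genes, 13 were higher in Vip nuclei than in other GABAergic nuclei and 3 lower (Pde1a, Ptprt and Htr1f), with a median of 1.20. After each nucleus was thinned to 1000 UMIs, which left out no member, Cnr1 was found in 39.7% of members, against 3.57% of oligodendrocyte reference nuclei. Tac2 and Penk were each found in 17.0%, against 0.999% and 3.28%. Crh was found in 10.7% of members, against 0 of 1401 oligodendrocyte nuclei, which allows a share of up to 0.214%. Calb2 (calretinin) was found in 3.00%, against 1.21%, and Htr3a in 2.67%, against 0.143%. Without thinning the shares of members were 77.7% for Cnr1, 29.3% for Tac2, 39.7% for Penk, 23.7% for Crh, 12.3% for Calb2 and 14.3% for Htr3a.

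Cck UMIs did not stand clear of those in oligodendrocyte reference nuclei. Thinned, they were found in 31.7% and 10.6% of members of the DISC1-N libraries and 28.8% and 17.7% of those of the WT libraries, against 36.4%, 8.66%, 34.7% and 13.2% of the oligodendrocyte reference nuclei of the same libraries. The shares of members were thus below those of the oligodendrocyte nuclei in both replicate 1 libraries and above them in both replicate 2 libraries. Npy was found in 2.33% of members, against 5.64% of oligodendrocyte reference nuclei over all libraries. In the other GABAergic nuclei, thinned, Cck was found in 16.0% and 4.25% (DISC1-N) and 17.4% and 6.87% (WT), below the members of each library. The references thus differ for Cck, and the part of free RNA in the Cck and Npy UMIs of members was not tested. By unthinned UMIs, 115 members held Cck and no Calb2, 15 Calb2 and no Cck, 22 both and 148 neither, so Cck with Calb2 does not divide the members here. Slc17a8, a vesicular glutamate transporter of some Cck interneurons, had a UMI in 0 of 300 members, which allows a share of up to 1.00%.

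Crh and Tac2 were found together. The 71 members with a Crh UMI had 505 CPM of Tac2, against 199 CPM in the 229 without, at nearly equal depth (median 3585 and 3653 UMIs). Tac2 was higher in the Crh nuclei of each library, with 518, 295, 771 and 501 CPM against 191, 144, 290 and 163 CPM. The 88 members with a Tac2 UMI had 247 CPM of Cxcl14, a chemokine gene of caudal interneurons, against 54.9 CPM in the 212 without. Penk went the other way in pooled values: 100 CPM in members with a Crh UMI, against 201 CPM in those without, and 105 CPM in members with a Tac2 UMI, against 211 CPM in those without. Within libraries Penk was lower in the Crh nuclei in each of the 4, with 94.2, 120, 131 and 22.8 CPM against 222, 137, 280 and 163 CPM. These splits are descriptions of the same nuclei and carry no test. Cholinergic genes were low: Chat, the acetylcholine-synthesising enzyme, had 1, 1, 1 and 2 nuclei with a UMI among the members of the 4 libraries, whereas Slc5a7, the choline transporter, had 39.3, 17.9, 26.6 and 38.3 CPM in Vip nuclei, against 0.283 to 0.765 CPM in the others (log2 fold change 6.11, SE 0.57, adjusted p = 8.46e-11).

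The share of Vip nuclei was compared between genotypes. Vip nuclei were 63 of 1315 GABAergic nuclei (4.79%, exact 95% interval 3.70 to 6.09%) in DISC1-N replicate 1 and 85 of 2505 (3.39%, 2.72 to 4.18%) in DISC1-N replicate 2. They were 73 of 1875 (3.89%, 3.06 to 4.87%) in WT replicate 1 and 79 of 2748 (2.87%, 2.28 to 3.57%) in WT replicate 2. GABAergic nuclei here held at least 1 UMI of the 3 GABA genes and at most 1 of the 2 glutamate transporter genes. The share averaged 4.09 ± 0.988% in DISC1-N and 3.38 ± 0.720% in WT (SD, n = 2 each; two-sided exact permutation p = 0.667, where the smallest p that 2 against 2 allows is 0.333). Within replicate numbers the difference was 0.898 percentage points in replicate 1 and 0.518 in replicate 2. After thinning to 1000 UMIs the difference was 0.666 and -0.447 points. At the same cut of 3 Vip UMIs, 18 of 588 and 11 of 1160 nuclei then counted in DISC1-N, and 20 of 835 and 18 of 1290 in WT. The exact 95% intervals in replicate 2 were 0.474 to 1.69% in DISC1-N and 0.829 to 2.20% in WT. These overlapped, and why the sign changed was not tested. Fewer Vip neurons and less Vip RNA per neuron cannot be told apart in such a share, since the rule counts nuclei by their Vip UMIs.

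Shares of members with a UMI of each of 10 subtype genes, thinned, were also set side by side between genotypes. By the two-sided exact permutation test all 10 adjusted p-values were 1. The lowest unadjusted p was 0.333, for Calb2 and Cnr1, which is the smallest that 2 against 2 allows. No gene could therefore pass, so the test cannot decide whether these shares differ and the values are descriptions. Calb2 was found in 7.94% and 2.35% of DISC1-N members and 1.37% and 1.27% of WT members, the DISC1-N shares above the WT shares. These shares rest on only 9 of 300 members with a Calb2 UMI over all libraries. The Calb2 share of WT replicate 1 was below the 1.54% of its own oligodendrocyte reference nuclei, and that of WT replicate 2 was close to the 1.22% of its own. The part of free RNA in these shares was not tested. Unthinned, Calb2 was found in 14.3% and 11.8% of DISC1-N members and 15.1% and 8.86% of WT members, which overlapped, and the thinned difference of 3.83 points was 1.04 points without DISC1-N replicate 1 and 6.62 without DISC1-N replicate 2. Cnr1 was found in 34.9% and 40.0% of DISC1-N members and 41.1% and 41.8% of WT members, the DISC1-N shares below the WT shares. Tac2 was found in 20.6% and 9.41% of DISC1-N members and 24.7% and 15.2% of WT members, lower in DISC1-N within each replicate number but overlapping across them.

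Expression in Vip nuclei was then compared between DISC1-N and WT. Disc1 itself had 14.7 and 17.1 CPM over all kept nuclei of the DISC1-N libraries and 13.6 and 13.4 CPM over those of the WT libraries. Members held 2 and 2 Disc1 UMIs in DISC1-N and 4 and 3 in WT, too few to check the genotype in Vip nuclei. How the DISC1-N allele was built is not given in the sources used here, so whether its transcript is counted as Disc1 is not known. By edgeR 0 of 6177 genes passed (0.0%), with 118 at an unadjusted p under 0.05; DESeq2 called 1 gene and limma-voom 0, with 22 and 110 at an unadjusted p under 0.05. Once replicate number entered as a block, 16 genes passed (0.259%). Of these, 2 were higher (0.0324%) and 14 lower (0.227%) in DISC1-N libraries, with 357 at an unadjusted p under 0.05. The higher ones were Wrn, a DNA helicase, and the gene model Gm47283. The lower ones included Nxph1, Sox6, Unc5d, Il1rapl2, AC149090.1, Gpc5, Ano3, Prkg1, Neto1, Calb1, Gria3, Ptprm and Sst. Few residual degrees of freedom remained with the block, so its p-values rest largely on a spread shared across genes.

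Nxph1 had 115 and 43.5 CPM in Vip nuclei of the DISC1-N libraries, against 493 and 306 CPM in those of the WT libraries, with no overlap. Its log2 fold change was -2.36 (SE 0.39, adjusted p = 0.102) without the block and -2.36 (SE 0.23, adjusted p = 9.01e-20) with it. Sox6 had 26.2 and 20.5 CPM in DISC1-N, against 186 and 98.9 CPM in WT, again with both DISC1-N values below both WT values. Its log2 fold change was -2.60 (SE 0.42, adjusted p = 0.102) without the block and -2.54 (SE 0.35, adjusted p = 1.70e-09) with it. Unc5d, a netrin receptor, had 295 and 164 CPM in DISC1-N, against 530 and 485 CPM in WT, and Calb1, the calcium buffer calbindin, 39.3 and 15.4 CPM against 104 and 63.8 CPM. Their log2 fold changes with the block were -1.16 (SE 0.18, adjusted p = 3.80e-07) and -1.62 (SE 0.39, adjusted p = 0.0216). Wrn had 102 and 128 CPM in DISC1-N, against 55.9 and 44.7 CPM in WT (log2 fold change with the block 1.20, SE 0.31, adjusted p = 0.0404). How many of all genes tested lacked overlap between genotypes was not counted. With so few libraries many genes can separate by chance, so lack of overlap is a description here.

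For several of the others a few nuclei or free RNA moved with the value. Of the 93 Il1rapl2 UMIs in WT replicate 2, 69 lay in 1 nucleus, and Il1rapl2, a synaptic adhesion gene, had 147 and 58.9 CPM in DISC1-N, against 264 and 297 CPM in WT. Sst had 72.1 and 23.0 CPM in Vip nuclei of DISC1-N libraries, against 181 and 51.0 CPM in those of WT libraries, and in oligodendrocyte reference nuclei it had 183 and 57.5 CPM in DISC1-N, against 242 and 91.8 CPM in WT. The part of free RNA in the Sst difference was not tested. Gpc5, a glypican, had 98.3 and 84.5 CPM in DISC1-N, against 346 and 108 CPM in WT, and Ano3, of the anoctamin family, had 105 and 58.9 CPM against 208 and 159 CPM. Ptprm, a receptor phosphatase, had 72.1 and 69.1 CPM in DISC1-N, against 184 and 124 CPM in WT.

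The genes that mark Vip nuclei gave no call in either fit. Crh had 105 and 58.9 CPM in DISC1-N, against 77.2 and 118 CPM in WT (log2 fold change -0.25, SE 0.36). The log2 fold change was -0.35 (SE 0.32) for Tac2, 0.04 (SE 0.26) for Cnr1, 0.30 (SE 0.28) for Prox1, 0.66 (SE 0.35) for Npas1, and 0.27 (SE 0.40) for Adarb2, each without the block. Of the lists, all 14 tested chaperones had a negative log2 fold change (median -0.30), as did all 10 tested mitochondrially encoded genes (median -0.47), against a median of -0.01 over all genes, and none of them was called. The other kinds of nuclei had lower sums in DISC1-N too. The chaperones summed to 1591 and 930 CPM in other GABAergic nuclei of DISC1-N libraries, against 1842 and 1299 CPM in those of WT libraries, and to 2298 and 1341 CPM in oligodendrocyte reference nuclei of DISC1-N libraries, against 3049 and 1984 CPM in those of WT libraries. The mitochondrially encoded genes summed to 1284 and 483 CPM in other GABAergic nuclei of DISC1-N libraries, against 2220 and 741 CPM in those of WT libraries, so within each replicate number both lists were lower in DISC1-N in these nuclei as well.

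Nxph1 and Sox6 UMIs lay in few nuclei. A group of 16 members held at least 2 UMIs summed over Lhx6 and Sox6, 2 and 2 in the DISC1-N libraries and 7 and 5 in the WT libraries; this split was made after the Sox6 difference was seen. They held 79.6% of the Nxph1 UMIs, 94.9% of the Sox6 UMIs, 32.2% of the Sst UMIs and 26.1% of the Unc5d UMIs of all members, and 11.0% of all UMIs. Their median depth was 7151 UMIs, against 3576.5 in the other members, and their median Scrublet doublet score 0.113, against 0.0152. Their median Vip and Adarb2 UMIs were 7 and 26.5, against 8 and 33.5 in the other members, and 8 of the 16 held a Prox1 UMI. Of the 16, 6 were among the nuclei of highest Scrublet score that an alternative left out, against 15 of the other 284.

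Without these nuclei Nxph1 stood at 38.3 and 42.1 CPM in DISC1-N and 39.0 and 106 CPM in WT, so that the DISC1-N values no longer lay apart from WT replicate 1. With the block its log2 fold change was then -0.82 (SE 0.38, adjusted p = 0.815), and of 5370 genes only Gm47283 and Malat1 were called (0.0372%), both higher in DISC1-N. Unc5d stood at 275 and 145 CPM in DISC1-N and 344 and 502 CPM in WT, its blocked log2 fold change being -1.02 (SE 0.23, adjusted p = 0.0934). Wrn stood at 101 and 129 CPM in DISC1-N and 56.7 and 49.5 CPM in WT, its blocked log2 fold change being 1.15 (SE 0.31, adjusted p = 0.309). Unc5d and Wrn thus kept their direction without overlap between genotypes but not their call. Both genes were named for a low p in these same libraries, so this lack of overlap is a description and no further support. Because the split uses Sox6, no value of Sox6 is read from the remaining nuclei.

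**Figure D4:**
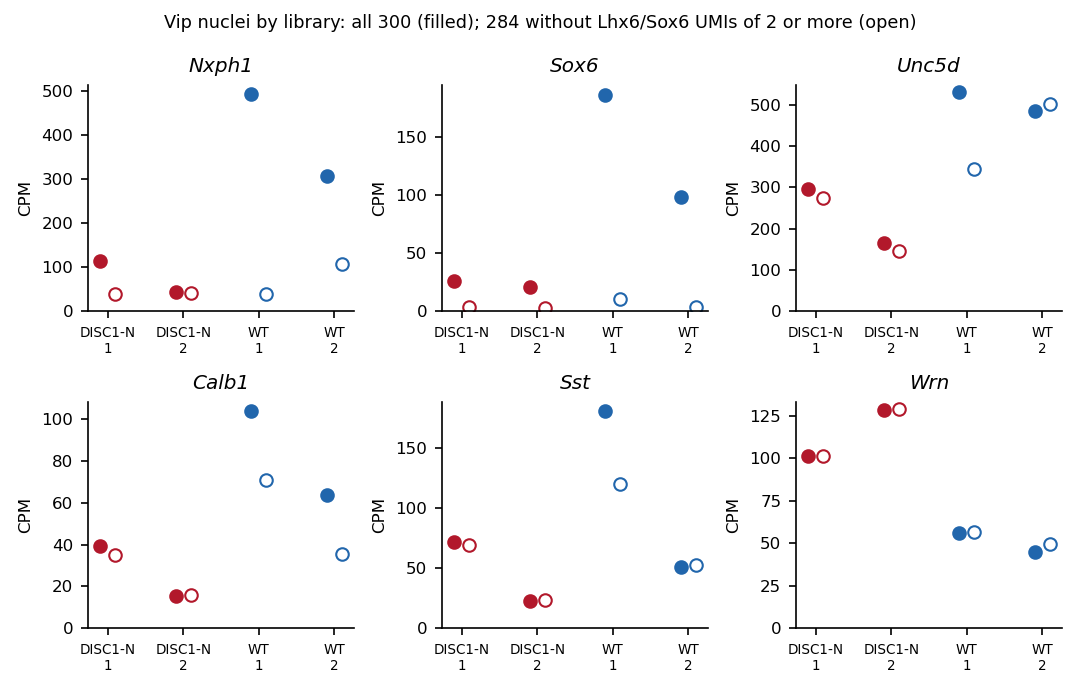
Summed level in CPM in Vip nuclei of each library for 6 genes, with DISC1-N in red and WT in blue and the replicate number under each library. Filled circles are all 300 Vip nuclei and open circles the 284 without the 16 nuclei that hold 2 or more Lhx6 and Sox6 UMIs; Nxph1 stands at 39.0 CPM in WT replicate 1 without them, and Wrn at 101 and 129 CPM in DISC1-N.

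Whether the genotype difference itself differed between Vip and other GABAergic nuclei was tested with an interaction term and the library as a block. Of 12652 genes, 8 passed (0.0632%), all lower in DISC1-N relative to WT in Vip nuclei than in the others. They were Nxph1, Sox6, Il1rapl2, Unc5d, Calb1, Hbb-bs, Gpc5 and Ptprm. In the other GABAergic nuclei, edgeR called 0 of 14506 genes between genotypes without the replicate block (116 at an unadjusted p under 0.05; DESeq2 and limma-voom also 0) and 123 with it (0.848%), 39 higher (0.269%) and 84 lower (0.579%). There the blocked log2 fold change was 0.22 for Nxph1 (SE 0.06, adjusted p = 0.0607) and 0.21 for Sox6 (SE 0.08, adjusted p = 0.264). Sst, in contrast, was lower in DISC1-N in the other GABAergic nuclei too (log2 fold change -0.82, SE 0.07, adjusted p = 8.73e-26), and its interaction was not called (-0.64, SE 0.40, adjusted p = 1.00). Without the 16 nuclei edgeR called 0 genes in the interaction, with 539 at an unadjusted p under 0.05.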

How the data were processed

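The authors deposited filtered 10x matrices of UMI counts per gene and cell barcode. The submitters' processing notes name Cell Ranger 7.0.0 and mm10; per the file headers the matrices came from Cell Ranger 7.0.0 in replicate 1 of either genotype and from 6.0.2 in replicate 2. Whether reads were counted by strand and whether free RNA was removed is not given in the sources used here. Of 27313 barcodes, 26850 with at least 500 genes and under 5% mitochondrial UMIs were kept. No doublets were removed in the values of the report; Scrublet (scanpy 1.11.5) was run for an alternative. Counts were summed per library and kind of nucleus and tested with edgeR 4.0.16 (R 4.3.3; TMM scaling, filterByExpr with a minimum count of 10, quasi-likelihood test, Benjamini-Hochberg adjustment, threshold 0.05), with DESeq2 1.42.0 and limma 3.58.1 as alternatives. CPM are summed UMIs per 1000000 UMIs of that library and kind. Intervals are exact binomial intervals at 95% and, like the bound of 3 UMIs, cover counting error only. Scripts were tested on simulated counts. Libraries are the samples (2 per genotype): nothing says that the replicates came from separate pools of mice, so p-values refer only to spread between these libraries, which may be technical. The edgeR test also shares its estimate of that spread across genes. With the replicate block few residual degrees of freedom remain, so a small p-value there does not measure a gene's own spread between libraries.

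Genes named for a comparison between kinds of nuclei had the largest changes among those past the threshold, with at least 50 CPM in the higher kind and the same direction in all libraries (12 each way, or 6 for the Adarb2 comparison), leaving out sex-linked, mitochondrial and ribosomal protein genes and unnamed gene models; those between genotypes were past the threshold in either fit or of lowest p. Of each list up to 4 members of lowest p were eligible, besides the markers and subtype genes. Called genes that fell outside this (Il1rapl2, Prkg1, Neto1, Gria3, Hbb-bs, AC149090.1, Gm47283, Malat1) and the peptide, receptor and Cxcl14 examples beyond it were named after their values were seen. The members and all lists were chosen with earlier results of these data known. Coordinates are mm10 (GENCODE M21, 32158 of 32285 gene IDs matched). Same-numbered libraries deviated together (correlation of deviations 0.346 over 3749 genes, the crossed pairs -0.346); with 2 pairs these values mirror each other, and the pairing of replicate numbers across genotypes comes from the labels' numbers and the Cell Ranger versions alone. Some called genes are not reported here.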

Additional observations from a re-analysis of the deposited data

Results flagged for a closer look

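The genotype difference differed between Vip nuclei and the other GABAergic nuclei for 8 genes by edgeR's interaction term with the library as a block (Benjamini-Hochberg over 12652 genes). All values below are log2 differences, those of Vip nuclei minus those of the other GABAergic nuclei, each with DISC1-N over WT. Nxph1 stood at -2.63 (SE 0.29, adjusted p = 2.02e-08) and Sox6 at -2.88 (SE 0.38, adjusted p = 2.39e-06). Il1rapl2, an X-linked synaptic adhesion gene, stood at -1.82 (SE 0.28, adjusted p = 0.000124), and 69 of its 93 UMIs in WT replicate 2 lay in 1 nucleus. Unc5d stood at -1.25 (SE 0.23, adjusted p = 0.00516) and Calb1 at -1.82 (SE 0.39, adjusted p = 0.0376). Gpc5 stood at -1.36 (SE 0.29, adjusted p = 0.0376) and Ptprm at -1.32 (SE 0.29, adjusted p = 0.0417). Hbb-bs, a beta-globin gene of red blood cells, stood at -3.84 (SE 0.83, adjusted p = 0.0376), with 3.28 and 10.2 CPM in Vip nuclei of DISC1-N libraries and 13.3 and 163 CPM in those of WT libraries; 48 of its 51 UMIs in WT replicate 2 lay in 1 nucleus.

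Leaving out a library moved these values. Nxph1 ranged over -3.58 to -1.80 and Sox6 over -3.41 to -2.10, and both were called each time. Without DISC1-N replicate 2, Il1rapl2 (-0.87), Unc5d (-0.63), Calb1 (-1.25) and Ptprm (-1.08) were not called. Without WT replicate 1, Unc5d (-0.90), Calb1 (-1.51), Gpc5 (-0.38) and Ptprm (-0.80) were not called. Without DISC1-N replicate 1 Gpc5 (-1.06), and without WT replicate 2 Hbb-bs (-0.82), were not called. Over the 4 libraries left out, the most negative values were -2.85 for Il1rapl2, -1.86 for Unc5d, -2.50 for Calb1, -1.93 for Gpc5, -1.70 for Ptprm and -5.26 for Hbb-bs.

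Without the 16 Vip nuclei that held 2 or more Lhx6 and Sox6 UMIs, none of the 8 was called: Nxph1 stood at -1.03, Unc5d at -1.06, Calb1 at -1.21, Gpc5 at -1.97, Ptprm at -0.55 and Hbb-bs at -0.77. Il1rapl2 stood at 0.063, with the sign reversed. Sox6 was used to choose those nuclei, so its value there is not read.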

How the results depend on the processing

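All 26 named genes of the comparison with other GABAergic nuclei, and all 12 of that with Adarb2 nuclei without Vip, kept their direction and their call under every alternative run. The number of genes called against other GABAergic nuclei was 1019 to 1735 over those alternatives, and leaving out each library in turn gave 1124 to 1371; without the library block it was 1028. Against Adarb2 nuclei without Vip it was 1169 to 1545 with a library left out, 1094 without the library block and 931 by DESeq2.

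Between genotypes in Vip nuclei, where edgeR called 0 genes, it called 6 with no filter on low counts, 2 with members of 5 or more Vip UMIs, 2 with the gate of the other GABAergic nuclei, 1 without nuclei with glial UMIs, and 0 to 5 with a library left out (5 without either WT library, 3 without DISC1-N replicate 2), and DESeq2 called 1. With the replicate block it called 16, and within the block 16 with DESeq2 size factors, 16 under 1% mitochondrial UMIs, 13 by limma-voom, 9 without deep nuclei, 7 with the gate of the other nuclei, 6 each with members of 2 or more and of 5 or more Vip UMIs, 5 without the nuclei of highest Scrublet score, 2 without glial nuclei, 2 without the Lhx6 and Sox6 nuclei, and 1 by DESeq2. Combinations with the block and the Lhx6 and Sox6 split were chosen after seeing the data. Blocked fits with a library left out had no residual degrees of freedom and could not be run. In the other GABAergic nuclei the counts were 1 with no filter and 123 with the replicate block. The tests on shares could call nothing, with that block or without it.

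The interaction called 8 genes, and 4 with DESeq2 size factors, 1 by DESeq2, 2 by limma-voom, 13 with no filter, 2 at a mean of at least 20 CPM, 2 with members of 2 or more Vip UMIs, 5 without deep nuclei, 2 without the nuclei of highest Scrublet score, 2 without glial nuclei, 13 under 1% mitochondrial UMIs, 0 without the Lhx6 and Sox6 nuclei, and 6 to 18 with a library left out, the 18 without WT replicate 2. Il1rapl2 reversed to 0.063 without the Lhx6 and Sox6 nuclei. The cause of these shifts was not tested, apart from the fewer nuclei or genes that each alternative holds by construction.

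The difference in the share of Vip nuclei, 0.708 percentage points, ranged over 0.00914 to 1.41 points with a library left out and was 0.109 after thinning. Some differences in subtype shares, which the test could not call, changed sign. Without thinning, Crh went to 7.44, Penk to -3.16 and Cnr1 to 4.50 points. With members of 2 or more Vip UMIs, Penk went to -0.0089, Cnr1 to 0.802 and Npy to -0.673. With 5 or more, Cck went to 1.63 and Htr3a to 0.877. Without the nuclei of highest Scrublet score, Penk went to -0.871. With a library left out they ranged over -12.7 to 8.5 points for Cck, 1.04 to 6.62 for Calb2, -3.64 to 1.20 for Crh, -10.5 to 0.711 for Tac2, -5.52 to 6.52 for Penk, -1.24 to 1.19 for Htr3a, -0.774 to 2.81 for Npy and -1.27 to 0.0 for Chat. With 63 to 85 members a library, genes of a few UMIs per library were filtered out and differences in them were not detectable at this depth.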
